A study of Mus musculus with 6 samples.

Results

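The comparison described here set MC38 cells starved of serum for 16 h (unstimulated) against MC38 cells kept in normal growth medium (control). MC38 is a colon carcinoma line of the C57Bl/6 mouse strain. The arrays were taken by their sample titles, which gave 4 of the 6 arrays of the study, 2 unstimulated and 2 control. The remaining 2 arrays held starved cells given S100A8/A9 and entered only the shared estimate of the spread. The labels give the medium of the unstimulated cells as reduced serum and that of the control cells as normal, with no treatment in either. Unstimulated cultures were subconfluent, and the density of the control cultures is not stated. All groups were 1 cell line on 1 bead array chip. Nothing in the labels says that replicates came from separate cultures, and the p-values therefore cover the spread between these arrays alone, which may be technical. Each group held its own positions on the chip, so array position and medium cannot be told apart.

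Serum supplies cultured cells with growth factors such as PDGF, insulin-like growth factors and lysophosphatidic acid, together with lipoprotein cholesterol, transferrin iron and hormones. When it is withdrawn, PI3 kinase and ERK signalling decline, ribosome production slows, and many cell types stop in G1 before DNA replication. Lower PI3 kinase and mTOR activity is also known to release FOXO and TFEB factors, which drive genes of growth restraint, lysosomes and autophagy, and loss of lipoproteins is known to release the SREBP factors that drive sterol synthesis.

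The 4 arrays detected 14877 to 16176 of 45281 probes each. Across genes, r was 0.992 between the unstimulated replicates and 0.992 between the control replicates, and 0.962 to 0.963 between arrays of the 2 groups. The tissue label was checked against defining markers. Of 16 colon epithelium markers, 13 were not detected on any of the 4 arrays, among them Epcam, Krt8, Krt18, Krt19, Krt20, Cdx2 and Vil1, and only Tjp1 was detected on all 4. Of 19 fibroblast and mesenchymal markers, 13 were detected on all 4 arrays. Of 16 leukocyte and endothelial markers with a probe, 14 were detected on none. The markers therefore go against an epithelial identity, and the cells are called MC38 cells throughout. In RNA from whole cultures, fewer cells that express a gene and less RNA per cell cannot be told apart.

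Values below are log2 intensities after normalization and fold changes are unstimulated minus control on that scale, each from 2 arrays per group. A gene was called higher or lower when its limma p-value, adjusted by Benjamini-Hochberg over 8909 genes, was below 0.05. By that rule 17.1% of genes were higher and 13.7% were lower, and these shares are the background for every count of list members. Changes of 2-fold or more made up 5.15% higher and 1.95% lower. The median over all genes was -0.00. The median called rise was 0.81 and the median called fall was -0.68. At 4-fold or more there were 56 rises and 7 falls. Leaving out 1 array of these groups lowered the count of called genes. Without unstimulated replicate 1 it was 915 higher and 612 lower, and without unstimulated replicate 2 it was 837 and 529. Without control replicate 1 it was 1027 and 637, and without control replicate 2 it was 1094 and 642. The 2-fold counts stayed between 467 and 492 higher and between 170 and 212 lower in these 4 fits. A gene named below as risen or fallen passed in each fit that left out 1 of the 6 arrays, unless its count of such fits is given. Fanca, Id3 and Socs1 could be tested in 4 of these fits and passed in those, and Smc2, Mcoln1, Atp6v0d1 and Nlrc5 were held to the same rule. The groups did not overlap for any of the 2746 called genes, and they did not overlap for 68.5% of all genes tested, so a remark below that groups did not overlap describes the values and adds nothing to the call. Of all genes tested, 323 were detected on no control array and entered the test only through starved arrays, which favors an estimate above 0; lists of risen genes below hold up to 7 such members. The test was also run on data simulated on these arrays, with 200 of 8909 genes changed. There it recovered 17.9% of changes of 1.5-fold, 74.6% of 2-fold and 98.5% of 4-fold. In the measured data 2746 genes were called, and the adjustment depends on the share of changed genes. These rates therefore describe the simulated setting and not this comparison. A gene that did not pass may still have changed.

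**Figure D1:**
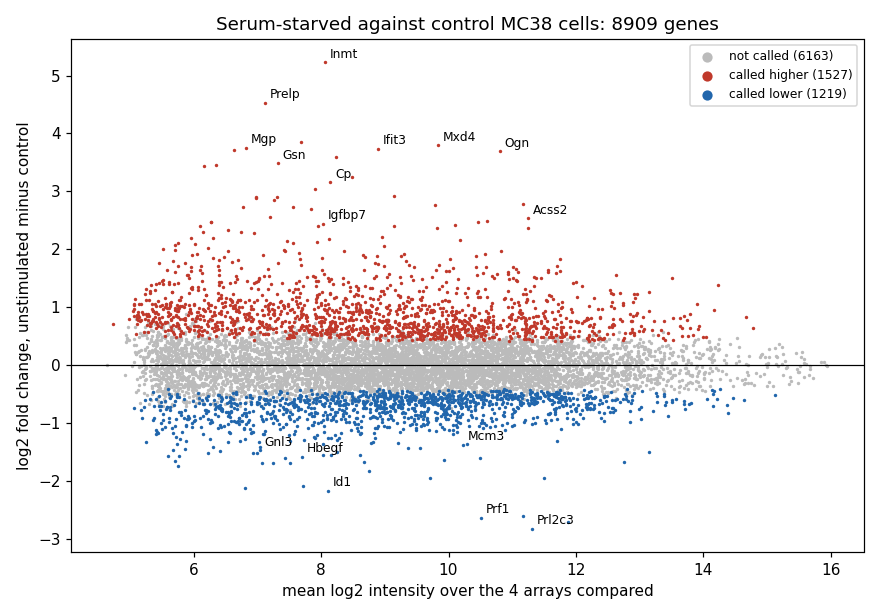
Each point is 1 gene, with its mean log2 intensity over the 4 arrays on the x axis and its log2 fold change, unstimulated minus control, on the y axis. Red and blue points were called higher and lower by limma, and the largest rises reach further from 0 than the largest falls.

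The largest rise was that of Inmt, an amine N-methyltransferase. Its log2 intensities were 10.63 and 10.72 in unstimulated cells and 5.39 and 5.50 in control cells, where it was not detected. The rise was at least 32.7-fold by this brightest probe (limma adjusted p = 3.48e-07), and its other detected probe gave a smaller log2 change of 3.58. Trp53inp1, a p53 target with a role in autophagy, stood at 8.10 and 8.06 against 4.47 and 4.78 and lay below detection in the latter. It rose at least 5.43-fold by this probe (adjusted p = 4.38e-06), and its other detected probe gave a log2 change of 2.11. Ecrg4, a secreted growth-restraining peptide gene, stood at 7.91 and 7.84 against 4.39 and 4.49 and rose at least 4.70-fold from no detection. Cp, the copper-carrying ferroxidase ceruloplasmin, stood at 9.94 and 9.50 against 6.46 and 6.68, and its other detected probe gave the same change of 3.15. In each of these 4 genes both unstimulated arrays lay far above both control arrays. At the other end, Prl2c2, a proliferin gene first described in serum-stimulated mouse fibroblasts, was at 10.56 and 10.47 in unstimulated cells and 13.19 and 13.26 in control cells. Sema4a, a semaphorin, was at 6.32 and 6.47 against 8.18 and 8.0, and fell by 1.70. Rai1 was at 7.88 and 7.80 against 9.42 and 9.59, but its other detected probes gave 0.09 and 0.04, so its change of -1.67 rests on 1 of its probes.

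The gene lists spread from a median log2 fold change of 2.17 for 5 small leucine-rich proteoglycans to -0.66 for 55 ribosome biogenesis genes and -2.71 for 3 proliferins. Lists of DNA replication, mitosis, ribosome production, nucleotide synthesis and chaperones held members called lower above the background share, and few called higher. Lists of interferon response, antigen presentation, sterol synthesis, hypoxia response, lysosome and matrix held members called higher above the background share. Ribosomal proteins, oxidative phosphorylation, the proteasome and aminoacyl-tRNA synthetases, which are large constitutive sets, held few called members of either direction.

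**Figure D2:**
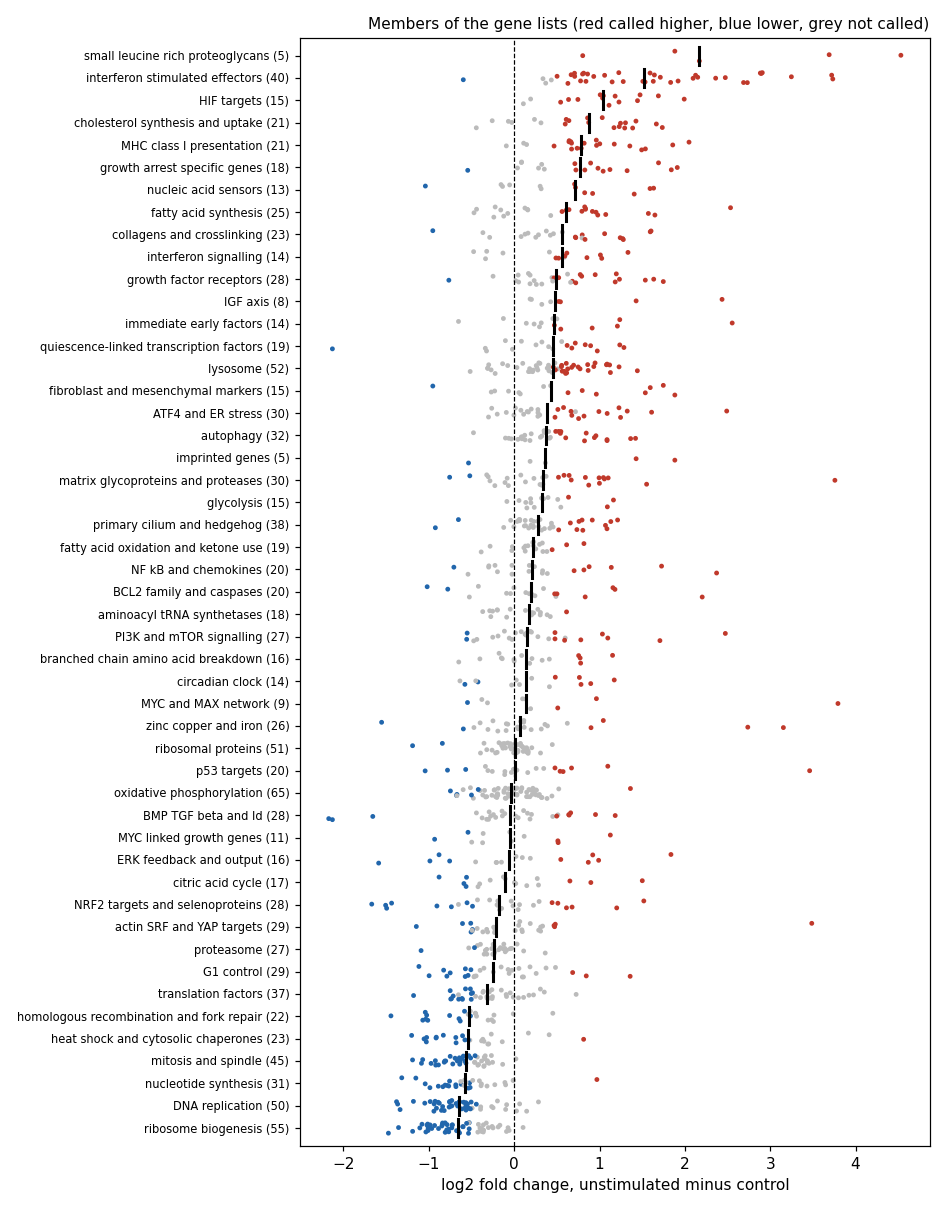
Each row is 1 gene list with at least 5 tested genes, each point 1 gene at its log2 fold change, unstimulated minus control, and the black bar the list's median. The number tested is in parentheses, the dashed line is the median over all genes, and the rows are ordered by their medians, from 2.17 at the top to -0.66 at the bottom.

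Of 28 growth factor receptor genes tested, 13 rose in starved cells, 1 fell and 14 did not pass, with a median of 0.49, and 8 to 12 rose in fits without 1 of the 4 arrays. Pdgfra and Pdgfrb, the receptors for PDGF, gave the clearest values. Pdgfra was at 11.54 and 11.35 in unstimulated cells and at 9.91 on both control arrays, a rise of 1.54 ± 0.14 SE (limma adjusted p = 0.000189). Pdgfrb was at 9.74 and 9.79 against 7.94 and 8.10, a rise of 1.75 ± 0.15 (adjusted p = 0.000141). The groups did not overlap for either receptor. Ghr, the growth hormone receptor, rose by 1.64, with other detected probes at 0.10 and 1.81, and Tgfbr2, the ligand-binding TGF-beta receptor, rose by 1.18. The insulin receptor gene Insr rose by 0.52 (adjusted p = 0.0220), but passed in 2 of 6 fits that left out an array, with the highest adjusted p of 0.103 without unstimulated replicate 2. Egfr stood at 0.63 (adjusted p = 0.0511) and Igf1r at 0.32 (adjusted p = 0.126), and neither passed. Other detected probes were at 0.46, 0.78 and 0.83 for Egfr and at 0.18 and 0.32 for Igf1r. The receptor kinase Tyro3 fell by 0.76, in 3 of 6 such fits, with the highest adjusted p of 0.161 without unstimulated replicate 2.

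One ligand and 2 binding proteins of the insulin-like growth factor axis were higher as well, as was the insulin receptor gene described above. Igf2, the fetal growth factor and the single ligand tested, was at 7.14 and 7.08 in unstimulated cells and 5.78 and 5.57 in control cells, a rise of 1.43 ± 0.15 SE (limma adjusted p = 0.000371). Igfbp7, a secreted protein that binds insulin-like growth factors weakly, was at 9.29 and 9.22 against 6.88 and 6.76, a rise of 2.44 ± 0.15 (adjusted p = 1.71e-05). In both genes the lower unstimulated array lay well above the higher control array. Of 8 tested genes of the axis 4 rose and none fell, and 2 or 3 rose in fits without 1 of the 4 arrays. Igf1 and Igfbp3 were not detected.

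Inside the PI3 kinase and mTOR pathway the 8 rises were those of 5 inhibitors and 3 regulatory genes. Of 11 inhibitors tested, 5 rose and none fell (median 0.41), and 2 of the 11 had entered the test only through starved arrays. Of 6 kinases none rose and 2 fell (median -0.36). Of 8 regulatory genes 3 rose, namely the regulatory subunit genes Pik3r1 (0.48) and Pik3r3 (0.78) and Eif4ebp1, which encodes the translation repressor 4E-BP1 (0.59). They passed in 2, 5 and 3 of 6 fits that left out an array, with the highest adjusted p of 0.244, 0.0625 and 0.213. The 2 adaptors tested did not pass. Pik3ip1, which binds and restrains the catalytic subunit, was at 7.83 and 7.19 in unstimulated cells and at 5.0 and 5.07, not detected, in control cells, a rise of at least 3.65-fold (limma adjusted p = 0.000109). Ddit4, which acts through the TSC complex against mTORC1, was at 12.77 and 12.34 against 10.88 and 10.81, a rise of 1.71 ± 0.19. Sesn1, a sestrin that restrains mTORC1, was at 11.78 and 11.76 against 10.71 and 10.63, a rise of 1.10 ± 0.14, with other probes at 1.30 and 0.96. None of the 3 genes had overlapping groups. The falls were small: Pik3cb, a catalytic subunit, fell by 0.56 and Rps6kb2, a ribosomal S6 kinase, by 0.55, and they passed in 2 and 3 of 6 fits that left out an array (highest adjusted p 0.0810 without control replicate 2 and 0.182 without unstimulated replicate 1). Over the whole list of 27 genes 8 rose and 2 fell, and in fits without 1 of the 4 arrays 3 to 6 rose and 0 or 1 fell. The difference between the inhibitors and the kinases was not tested.

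Among genes listed for growth arrest or serum withdrawal, 11 of 18 rose and 1 fell (median 0.78). Of 6 growth arrest-specific (gas) genes tested 2 rose and 1 fell, with a median of 0.30. Of 12 others, chosen as serum deprivation genes, 9 rose and none fell, with a median of 0.86. Pdcd4, an inhibitor of the initiation helicase eIF4A that S6 kinase marks for destruction, was at 10.28 and 10.23 in unstimulated cells and at 8.52 and 8.17 in control cells (rise 1.91 ± 0.16 SE, limma adjusted p = 0.000112). Pmp22, also known as growth arrest-specific 3, was at 11.40 and 11.47 against 9.75 on both control arrays (1.69 ± 0.15, adjusted p = 0.000151). Gas7 lay below detection in control cells and its rise was at least 2.98-fold by its brightest probe, with other probes at log2 changes of 1.46 and 1.33. Cavin2, the serum deprivation response gene, rose by 1.12. These 4 genes were higher on both unstimulated arrays, while Gas1 and Gas6 were not detected in either group. Txnip, which limits glucose uptake, rose by 0.71 in 4 of 6 fits that left out an array (highest adjusted p = 0.0525, without control replicate 1). Gas2l3, a cytoskeletal protein of dividing cells, was the member that fell, by 0.54, in 2 of 6 such fits (highest adjusted p = 0.205, without unstimulated replicate 1). In fits without 1 of the 4 arrays, 8 to 10 members of the list rose and none fell.

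Among 29 genes of G1 control tested, 3 rose and 9 fell. Of 5 D and E cyclins 3 fell (median -0.57), both E cyclins and the D cyclin Ccnd3, while Ccnd1 and Ccnd2 did not pass. Ccnd3 fell by 0.57, with its other probe at -0.56, in 4 of 6 fits that left out an array (highest adjusted p = 0.0936, without unstimulated replicate 1). Ccnd1, the mitogen-driven D cyclin, was at 13.34 and 13.25 in unstimulated cells and 13.19 and 13.21 in control cells, a difference of 0.10 ± 0.14 SE that did not pass (limma adjusted p = 0.639), with other probes at -0.47 and 0.13. Ccne2, an E cyclin that activates CDK2 at the start of S phase, was at 7.76 and 8.07 against 9.0 and 9.07, a change of -1.12 ± 0.16 (adjusted p = 0.00155). Cdkn2b, which encodes the CDK4 and CDK6 inhibitor p15, was at 12.02 and 12.03 against 10.67 on both control arrays, a rise of 1.36 ± 0.14 (adjusted p = 0.000286). The unstimulated arrays lay below the control arrays for Ccne2 and above them for Cdkn2b, without overlap.

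Of the other CDK inhibitors and the retinoblastoma family, Rb1 and Cdkn2a rose. Cdkn1a, which encodes p21, was at 9.53 on both unstimulated arrays and at 9.29 and 9.25 on the control arrays, a difference of 0.26 that did not pass (adjusted p = 0.246). Cdkn1b, which encodes p27, was at 0.48 (adjusted p = 0.106), and Cdkn1c was not detected. Rb1, the retinoblastoma gene, rose by 0.84, in 5 of 6 fits that left out an array (adjusted p = 0.0512 without unstimulated replicate 2). Cdkn2a rose by 0.69, also in 5 of 6 (0.0564 without unstimulated replicate 2). The falls of Ccne1 (-0.79) and Cdk6 (-1.0) were less stable, in 3 and 2 of 6 such fits (highest adjusted p 0.114 without unstimulated replicate 2 and 0.138 without unstimulated replicate 1). E2f2, an activating E2F factor, fell by 0.83 ± 0.15 (adjusted p = 0.00452), while E2f1 was at -0.46 (adjusted p = 0.132), with its unstimulated arrays apart at 10.99 and 11.70. Over the list, 1 to 4 rose and 4 to 7 fell in fits without 1 of the 4 arrays.

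Genes of DNA replication fell broadly: 38 of 50 tested were lower and none was higher, with a median of -0.64, and 21 to 28 fell in fits without 1 of the 4 arrays. By role, 18 of 23 genes of origin licensing and the helicase fell, 14 of 21 of the polymerases and fork, and 6 of 6 of replication-coupled chromatin. Mcm3, a subunit of the MCM2-7 helicase, was at 9.41 and 9.68 in unstimulated cells and 10.89 and 10.95 in control cells, a change of -1.38 ± 0.16 SE (limma adjusted p = 0.000518). Orc1, the cell cycle-regulated origin recognition subunit, was at 7.25 and 7.43 against 8.73 and 8.69, a change of -1.36 ± 0.15 (adjusted p = 0.000450). Gmnn, which encodes the licensing inhibitor geminin, was at 5.93 and 5.80 against 7.26 and 7.14, a change of -1.34 ± 0.18 (adjusted p = 0.00116). Every unstimulated value of these 3 genes was below both control values. Pcna, the sliding clamp, fell by 0.82, Cdc6 by 0.89 and Mcm2 by 0.85. Of 22 genes of homologous recombination and fork repair, 11 fell and none rose (median -0.53, 7 or 8 in fits without 1 of the 4 arrays). Brca1 fell by 1.04, and Fanca, not detected in unstimulated cells, fell at least 2.19-fold.

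Promoters of Mcm3 and Orc1 are shown because both held a site of the kind that E2F factors bind. The sequences are RefSeq windows of GRCm38.p6, from 250 bases before to 50 bases after the annotated gene start, written 5′ to 3′ on the gene's strand, with the matched letters in capitals. The Mcm3 window (chr1:20820263-20820562, minus strand) has TTTGGCGC starting 38 bases after the gene start, and the Orc1 window (chr4:108579204-108579503, plus strand) has TTTCGCGC, read on the opposite strand, starting 27 bases before it.
Mcm3: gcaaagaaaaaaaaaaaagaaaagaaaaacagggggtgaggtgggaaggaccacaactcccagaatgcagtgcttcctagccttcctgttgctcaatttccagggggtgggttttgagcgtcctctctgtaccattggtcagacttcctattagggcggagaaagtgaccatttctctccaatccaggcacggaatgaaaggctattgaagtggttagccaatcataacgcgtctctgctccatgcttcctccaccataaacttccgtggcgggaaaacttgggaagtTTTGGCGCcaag
Orc1: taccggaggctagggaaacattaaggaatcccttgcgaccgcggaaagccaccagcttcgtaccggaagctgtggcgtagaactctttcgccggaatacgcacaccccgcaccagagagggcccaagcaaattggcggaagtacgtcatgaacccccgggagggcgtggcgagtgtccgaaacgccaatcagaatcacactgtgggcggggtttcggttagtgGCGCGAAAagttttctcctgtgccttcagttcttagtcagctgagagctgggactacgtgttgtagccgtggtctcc
Of 53 windows of the tested replication genes, 9 held TTTCGCGC (17.0%) and 5 held TTTGGCGC (9.43%) on either strand. Over all 32851 promoter windows the shares were 0.323% and 0.514%, and over windows of all genes tested 0.779% and 1.00%. Windows were found for 41 of the 50 genes. A match is a description of letters and was not tested against the measured change.

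Of 45 mitotic genes tested, 26 fell and none rose (median -0.57), and 11 to 14 fell in fits without 1 of the 4 arrays. Ccna2, the cyclin of S phase and early mitosis, was at 6.45 and 6.54 in unstimulated cells and at 7.72 and 7.64 in control cells, a change of -1.19 ± 0.14 SE (limma adjusted p = 0.000704). Mybl2, the B-MYB partner of the mitotic gene activator complex, was at 10.28 and 9.71 against 11.14 and 11.02, a change of -1.09 ± 0.20, with other probes at -0.87 and -1.40. Cdk1, the mitotic kinase, was at 11.83 and 11.76 against 12.43 and 12.66, a change of -0.75 ± 0.15. The groups did not overlap in these 3 genes. Knl1, a kinetochore scaffold, fell by 1.07, with its other probe at -0.39. Plk1 fell by 0.58 (adjusted p = 0.0426), in 2 of 6 fits that left out an array (highest adjusted p = 0.158, without unstimulated replicate 2). Foxm1, a transcription factor of the same program, was at -0.31 and did not pass (adjusted p = 0.205).

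Knl1 and Smc2, the latter a condensin subunit that fell by 0.97 in 5 of 6 fits that left out an array (highest adjusted p = 0.0614) and was taken as the next mitotic gene by size with a match, are shown for the CHR element, a site by which cell cycle genes are repressed in G1 and quiescence. The windows were taken in the same way, chr2:119046869-119047168, plus strand for Knl1 and chr4:52438971-52439270, plus strand for Smc2, and capitals mark TTTGAA on either strand.
Knl1: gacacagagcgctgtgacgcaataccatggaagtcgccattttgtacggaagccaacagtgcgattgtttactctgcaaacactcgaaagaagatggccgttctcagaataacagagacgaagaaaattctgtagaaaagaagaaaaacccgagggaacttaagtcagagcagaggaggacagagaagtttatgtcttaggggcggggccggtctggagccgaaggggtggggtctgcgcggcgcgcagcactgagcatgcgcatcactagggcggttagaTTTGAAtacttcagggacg
Smc2: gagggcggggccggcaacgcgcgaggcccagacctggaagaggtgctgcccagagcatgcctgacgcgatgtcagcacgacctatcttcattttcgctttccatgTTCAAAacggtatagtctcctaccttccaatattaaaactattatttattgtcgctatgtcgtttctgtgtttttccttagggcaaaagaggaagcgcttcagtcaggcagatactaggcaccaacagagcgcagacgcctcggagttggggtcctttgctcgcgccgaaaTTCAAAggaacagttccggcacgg
The Knl1 element starts 31 bases after the gene start, and the Smc2 elements start 145 bases before it and 26 bases after it. TTTGAA was in 29 of 41 windows of the tested mitotic genes (70.7%), against 17.9% of all windows and 11.7% of windows of genes tested. CCAAT was in 32 of the 41 (78.0%), against 37.4% and 38.6%. These short words are common, and the shares are given as a description.

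Of 55 ribosome biogenesis genes, 35 fell and none rose (median -0.66), with 25 to 27 lower in fits without 1 of the 4 arrays. Among them 32 of 45 nucleolar assembly factors fell (median -0.73) and 3 of 10 genes of RNA polymerase I transcription. Gnl3, which encodes nucleostemin, was at 6.12 and 6.49 in unstimulated cells and at 7.77 and 7.79 in control cells, a change of -1.47 ± 0.17 SE (limma adjusted p = 0.000600). Nat10, an RNA acetyltransferase of small subunit assembly, was at 6.69 and 6.34 against 7.61 and 7.79, a change of -1.19 ± 0.16 (adjusted p = 0.00135). Both unstimulated arrays were below both control arrays. Ncl, nucleolin, fell by 0.73 in 5 of 6 fits that left out an array (adjusted p = 0.0542 without unstimulated replicate 2). Rrn3, the growth-regulated initiation factor of polymerase I, was at -0.42 and did not pass (adjusted p = 0.152). Of 51 ribosomal protein genes, none rose and 2 fell, with a median of 0.01 that changed sign under another scaling. The 2 were Rps15a, which fell by 1.19, and Rpl14, which fell by 0.84 in 3 of 6 such fits (highest adjusted p = 0.120, without control replicate 2).

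Of 37 translation factors 13 fell, none rose and 24 did not pass (median -0.32), with 3 to 7 lower in fits without 1 of the 4 arrays. Eif3b, a scaffold of the initiation factor eIF3, fell by 0.75, and its other probe was at -0.83. It passed in 5 of 6 such fits (adjusted p = 0.0683 without unstimulated replicate 1). Of 31 nucleotide synthesis genes 16 fell and 1 rose (median -0.58), with 8 to 12 lower and 0 or 1 higher in those fits. Gart, which carries 3 steps of purine synthesis in 1 protein, was at 11.02 and 11.07 against 12.29 and 12.44, a change of -1.32 ± 0.16 SE (limma adjusted p = 0.000682). Umps, which completes UMP, fell by 1.04 and Shmt1, a folate enzyme, by 1.15. The purine enzymes fell in 9 of 12 cases. Ctps2 was the member that rose, by 0.97, in 4 of 6 fits that left out an array (highest adjusted p = 0.0801, without unstimulated replicate 2).

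Of 23 chaperones, most of them cytosolic, 12 fell and 1 rose (median -0.54), and fewer fell in fits without 1 of the 4 arrays. The 12 include the mitochondrial Hspd1 and Hspe1, whose calls in such fits are not given. Hsp90aa1, the inducible HSP90, was at 11.38 and 11.51 in unstimulated cells and at 12.46 and 12.48 in control cells (change -1.03 ± 0.14 SE, limma adjusted p = 0.00125). Its other detected probe was at -1.53. Cct7, a subunit of the ring chaperonin that folds actin and tubulin, was at 7.44 and 7.23 against 8.43 and 8.65 (change -1.20 ± 0.16). For both genes the groups were separate. Hspa1b was the member that rose, by 0.81, in 3 of 6 fits that left out an array (highest adjusted p = 0.262, without control replicate 2).

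The transcript of Myc itself was lower on average but did not pass. Myc was at 8.09 and 7.57 in unstimulated cells and at 8.20 and 8.09 in control cells, a difference of -0.31 ± 0.19 SE (limma adjusted p = 0.243). Odc1, the ornithine decarboxylase that MYC is known to activate, was at 12.65 and 12.46 against 13.51 and 13.47, a change of -0.93 ± 0.14 (adjusted p = 0.00215). On the list of MYC-linked growth genes, 2 of 4 polyamine genes tested, Odc1 among them, fell and none rose. Of its 7 amino acid transporters tested 3 were called higher and none lower. Slc1a4 rose by 1.13. Slc38a2 was at 0.52, with its other probe at 0.07, and Slc7a11 at 0.51, with other probes at 0.06 and 0.10. Slc38a2 and Slc7a11 did not pass in every fit that left out an array. Mxd4, which competes with MYC for the partner MAX and represses, was at 11.71 and 11.74 against 7.97 and 7.90, a rise of 3.79 ± 0.17 (adjusted p = 4.38e-06). The Myc arrays of the groups lay within 1 unit of each other, while those of Mxd4 lay more than 3 units apart. Of 5 antagonists 3 rose and 1, Mxd3, fell. The rises of Mxd1 (at least 1.13-fold from no detection) and Mnt (0.51), and the fall of Mxd3 (-0.55), each passed in 2 of 6 fits that left out an array. Their highest adjusted p values were 0.118 without unstimulated replicate 2, 0.184 without unstimulated replicate 1 and 0.175 without unstimulated replicate 1.

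**Figure D3:**
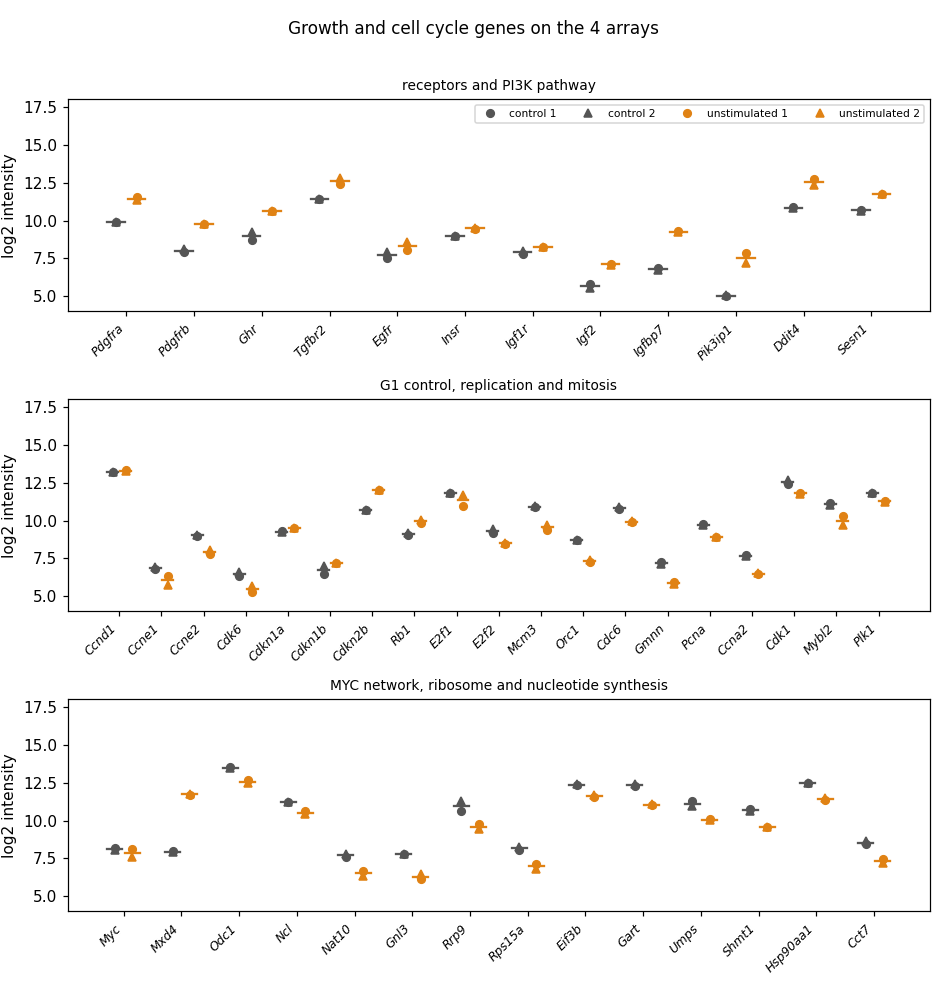
Points are log2 intensities of single arrays, circles for replicate 1 and triangles for replicate 2, with control cells in grey and unstimulated cells in orange, and bars are group means. PDGF receptors, Pik3ip1, Cdkn2b and Mxd4 are higher on both unstimulated arrays, replication and nucleolar genes are lower on both, and Ccnd1 and Myc lie close between groups.

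The widest rise of any list with over 10 tested members was that of interferon-stimulated effectors. Of 40 tested, 36 rose and 1 fell (median 1.52), and 29 to 33 rose and none fell in fits without 1 of the 4 arrays. Of the 40, 7 passed the detection filter only through starved arrays. Ifit3, which binds viral RNA complexes, was at 10.89 and 10.63 in unstimulated cells and at 7.02 and 7.03 in control cells (rise 3.73 ± 0.15 SE, limma adjusted p = 2.83e-06). Rsad2, the antiviral enzyme viperin, was at 10.02 and 10.19 against 6.77 and 6.94 (3.25 ± 0.15, adjusted p = 4.38e-06). Isg15, a ubiquitin-like modifier, was at 9.01 and 8.99 against 7.02 and 6.73 (2.13 ± 0.19, adjusted p = 0.000150). The groups were far apart in each. Ifitm3, a membrane restriction factor already bright in control cells, rose less, by 0.84 (from 13.35 and 13.21 to 14.05 and 14.20). Irgm1 is uncertain: its brightest probe was at 14.34 on both unstimulated arrays and 14.91 and 14.95 on the control arrays, a change of -0.60 that passed in 2 of 6 fits that left out an array (highest adjusted p = 0.0645, without unstimulated replicate 2), while its other probes were at 1.14 and 0.87.

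The promoters of Ifit3 and Rsad2, the effectors with the largest rises whose window held a match, are printed with the ISRE core in capitals. The core, TTTCNNTTT on either strand, is part of the interferon-stimulated response element, which IRF factors bind. The windows are chr19:34583279-34583578, plus strand for Ifit3 and chr12:26456403-26456702, minus strand for Rsad2.
Ifit3: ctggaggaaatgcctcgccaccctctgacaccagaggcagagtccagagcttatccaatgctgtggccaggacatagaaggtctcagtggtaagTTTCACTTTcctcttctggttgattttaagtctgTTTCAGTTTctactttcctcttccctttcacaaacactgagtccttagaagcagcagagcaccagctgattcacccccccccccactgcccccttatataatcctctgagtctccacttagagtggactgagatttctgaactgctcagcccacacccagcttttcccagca
Rsad2: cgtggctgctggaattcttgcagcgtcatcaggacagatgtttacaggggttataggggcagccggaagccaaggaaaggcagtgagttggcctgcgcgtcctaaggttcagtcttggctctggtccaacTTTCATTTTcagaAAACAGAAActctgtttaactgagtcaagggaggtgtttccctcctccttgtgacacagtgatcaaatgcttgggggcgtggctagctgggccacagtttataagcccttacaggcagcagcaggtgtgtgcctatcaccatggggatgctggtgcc
The Ifit3 cores start 156 and 122 bases before the gene start, and the Rsad2 cores start 120 and 107 bases before it. The core was in 24 of 43 windows of the tested effectors (55.8%) and in 5 of 9 windows of the genes of innate sensing described below (55.6%). It was in 10.6% of all windows and in 7.64% of windows of all genes tested.

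Of 14 interferon signalling genes 8 rose and none fell (median 0.56), with 2 to 6 higher in fits without 1 of the 4 arrays. Tyk2, a receptor-associated kinase, was at 7.65 and 7.49 in unstimulated cells and at 6.24 on both control arrays, a rise of 1.33 ± 0.15 SE (limma adjusted p = 0.000515), with its other probe at 0.42. Irf1 rose by 0.85. Stat2 rose by 1.03 and Irf9 by 0.62, in 5 and 4 of 6 fits that left out an array, with the highest adjusted p of 0.0615 and 0.0667 without unstimulated replicate 1. Socs1, the feedback inhibitor, rose at least 1.32-fold from no detection. The ligand gene Ifnb1 was not detected on any array.

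Most genes of innate sensing that changed were higher, and the DNA sensor Cgas was lower. Besides sensors of nucleic acid the list holds adaptors, kinases and the receptors Tlr2 and Tlr4, which do not sense nucleic acid. Tlr2 and Tlr4 are counted among the genes called higher, and how far their calls held without single arrays is not given. Of 13 tested, 7 rose and 1 fell (median 0.71), and 6 or 7 rose and 1 fell in fits without 1 of the 4 arrays. Dhx58, which encodes the RIG-I relative LGP2, was at 6.92 and 6.94 in unstimulated cells and at 5.10 and 5.57 in control cells (rise 1.59 ± 0.19 SE, limma adjusted p = 0.000627). Tlr3, the endosomal receptor of double-stranded RNA, rose at least 1.38-fold from no detection, and Ddx58, which encodes RIG-I, rose by 0.71. Of the 13, 2 had entered the test only through starved arrays, Tlr3 and Ifih1, and both are among the 7 that rose. Cgas, the cytosolic DNA sensor, was at 10.31 and 10.32 against 11.21 and 11.50 (change -1.04 ± 0.15, adjusted p = 0.00172), and its other probe was at -1.10. Sting1, the adaptor that cGAS signals to, was at 6.92 on both unstimulated arrays and at 4.91 and 5.66 on the control arrays (rise 1.63 ± 0.23). Cgas and Sting1 changed in opposite directions, and neither had overlapping groups.

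Of 21 genes of class I antigen presentation tested, 18 rose and none fell (median 0.79), with 13 to 15 higher in fits without 1 of the 4 arrays. They were 8 of 8 heavy and light chains, 4 of 7 loading factors, 5 of 5 immunoproteasome subunits and the transcription factor Nlrc5. Nlrc5, which activates class I genes, was detected on no control array and entered the test only through starved arrays. It was at 6.63 and 6.67 against 5.37 and 5.21, a rise of at least 2.01-fold. Tapbp, tapasin, was at 9.94 and 10.09 against 7.95 and 7.98 (rise 2.05 ± 0.14 SE, limma adjusted p = 3.94e-05). Psmb9, an immunoproteasome subunit, was at 8.65 and 9.23 against 7.22 and 6.94 (rise 1.86 ± 0.20). B2m, the light chain, rose by 0.64 in 5 of 6 fits that left out an array (adjusted p = 0.0714 without unstimulated replicate 2). Tap1 rose by 0.67 in 2 of 6 (highest adjusted p = 0.103, without control replicate 2). Of 27 constitutive proteasome genes, 2 fell and none rose (median -0.24).

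Chemokines and NF-kB genes were mixed, with 6 of 20 higher and 1 lower (median 0.21), and 5 or 6 higher and 0 to 2 lower in fits without 1 of the 4 arrays. Ccl5, a T cell chemokine, was at 10.96 and 11.05 in unstimulated cells and at 8.93 and 8.34 in control cells (rise 2.37 ± 0.20 SE, limma adjusted p = 0.000109), and Ccl9 was at 10.23 and 10.25 against 8.61 and 8.42 (rise 1.73 ± 0.15). Ccl2, a monocyte chemokine known for induction by serum and PDGF, was at 11.59 and 11.51 against 12.21 and 12.31, a change of -0.71 in 4 of 6 fits that left out an array (highest adjusted p = 0.0699, without unstimulated replicate 2). Cxcl1 was at -0.03 and Nfkbia, the NF-kB inhibitor, at -0.03, and neither passed (adjusted p = 0.919 for Cxcl1 and 0.927 for Nfkbia). The other probe of Nfkbia was at -0.81.

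**Figure D4:**
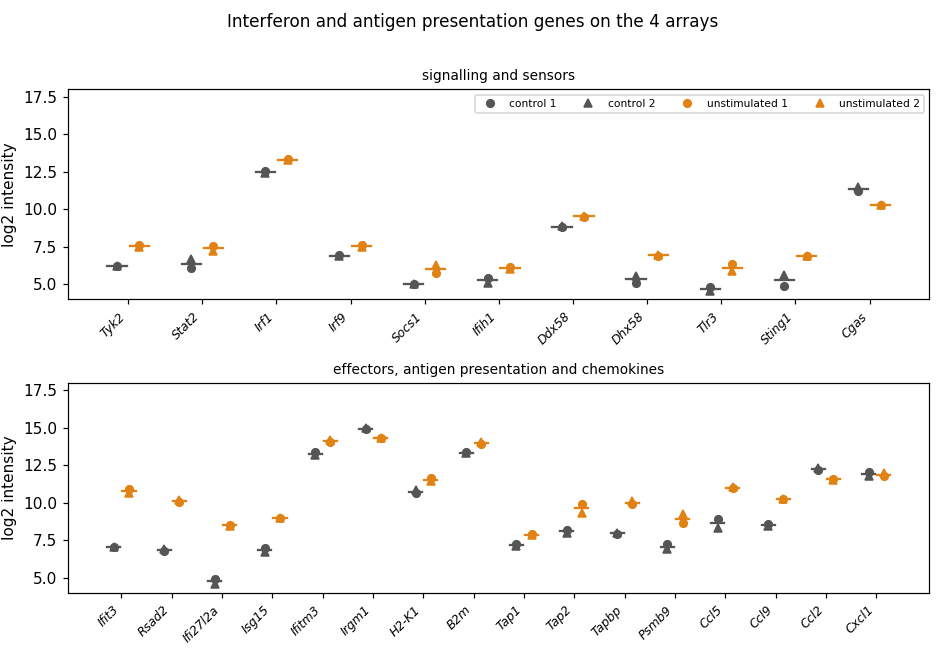
Points are log2 intensities of single arrays, circles for replicate 1 and triangles for replicate 2, with control cells in grey and unstimulated cells in orange, and bars are group means. Effector genes such as Ifit3 and Rsad2 are higher by over 3 units on both unstimulated arrays, Cgas and the brightest probe of Irgm1 are lower, the latter in 2 of 6 fits that left out an array, and Cxcl1 overlaps between groups.

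Sterol synthesis rose along most of the pathway. Of 15 enzymes tested, 13 rose and none fell (median 1.23). Over the list of 21 genes 15 rose, and 12 to 14 in fits without 1 of the 4 arrays. Nsdhl, a C4-demethylase of late synthesis, was at 10.69 and 10.75 in unstimulated cells and at 9.09 and 8.88 in control cells (rise 1.74 ± 0.15 SE, limma adjusted p = 0.000113), and its other probes were at 1.68, 1.49 and 1.86. Mvd, a mevalonate pathway enzyme, was at 11.90 and 11.87 against 10.18 and 10.26 (rise 1.67 ± 0.15). Sqle, squalene epoxidase, was at 13.24 and 13.27 against 12.17 and 12.27 (rise 1.03 ± 0.14). The groups did not overlap in any of these enzymes. Srebf2, the gene of the SREBP2 factor, was at 10.59 and 10.74 against 10.67 and 10.72, a difference of -0.03 (adjusted p = 0.916). Insig1, the retention factor of SREBP, rose by 0.60 in 3 of 6 fits that left out an array (highest adjusted p = 0.216, without control replicate 2), and its other probes gave 1.16 and 1.37. No window of the tested sterol genes, 0 of 26, held TCACNCCAC, the sterol element letters searched on both strands, which 1.24% of all windows held.

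Of 25 fatty acid synthesis genes 14 rose and none fell (median 0.61), 9 to 13 rising and 0 or 1 falling in fits without 1 of the 4 arrays. Acss2, which makes acetyl-CoA from acetate, was at 12.46 and 12.58 in unstimulated cells and at 10.01 and 9.96 in control cells (rise 2.54 ± 0.14 SE, limma adjusted p = 1.20e-05). Lpin1, a phosphatidate phosphatase and SREBP target, was at 8.92 and 8.74 against 7.12 and 7.41 (rise 1.57 ± 0.18, other probe 1.51). Both genes had separate groups. Fads3, a desaturase relative, rose by 1.65. Srebf1 rose by 0.61 in 3 of 6 fits that left out an array (highest adjusted p = 0.130, without control replicate 1). Fasn was detected on 1 of the 4 arrays, and its estimate of 0.43 did not pass (adjusted p = 0.327). Fatty acid oxidation moved little, with 3 of 19 higher and none lower (median 0.23). Acaa1a, a peroxisomal thiolase, rose by 0.82.

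Targets of the hypoxia-inducible factors rose in 13 of 15 cases, 11 in each fit without 1 of the 4 arrays, and none fell (median 1.05). Of the 15, 2 had entered the test only through starved arrays, and both are among the 13. Egln3, an oxygen-sensing hydroxylase, was at 11.36 and 11.20 in unstimulated cells and at 9.50 and 9.68 in control cells (rise 1.69 ± 0.15 SE, limma adjusted p = 0.000164), with its other probe at 1.05. Pdk1, which closes the entry of pyruvate into the citric acid cycle, was at 11.68 and 11.92 against 10.27 and 10.38 (rise 1.48 ± 0.19). Car9, the tumor carbonic anhydrase, lay below detection in control cells, and its rise was at least 2.08-fold. Vegfa rose by 0.64, in 4 of 6 fits that left out an array (highest adjusted p = 0.0848, without unstimulated replicate 2). Of 15 glycolytic enzymes and transporters 3 were higher and none lower (median 0.32), a share near the 17.1% of all genes called higher. That count varied in fits without 1 of the 4 arrays. Slc2a1, the glucose transporter GLUT1, rose by 1.16 and Pfkl, a phosphofructokinase, by 1.09, while Ldha was at 0.14 and did not pass (adjusted p = 0.539).

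Mitochondrial genes were near the all-gene median. Of 65 oxidative phosphorylation genes 1 rose and 5 fell (median -0.04). Ndufv3, a complex I subunit, was the 1 that rose, from 11.56 and 11.26 in control cells to 12.90 and 12.64 in unstimulated cells, with other probes at 1.38 and 0.60. Atp5a1, the alpha subunit of the ATP synthase, fell by 0.75, with its other probe at -0.42. Of 17 citric acid cycle and neighbouring genes 3 rose and 4 fell (median -0.10). Idh1, the cytosolic enzyme that makes NADPH, was at 12.21 on both unstimulated arrays and at 10.66 and 10.76 on the control arrays (rise 1.5 ± 0.14 SE, limma adjusted p = 0.000187). Idh3a, the mitochondrial NAD-dependent enzyme, fell by 0.88, with its other probe at -1.19.

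Of 52 lysosomal genes 24 rose, none fell and 28 did not pass (median 0.45), and 12 to 17 rose in fits without 1 of the 4 arrays. The rises were 11 of 20 glycosidases and lipases, 7 of 11 membrane and transport genes, 4 of 8 proteases and 2 of 13 subunits of the proton pump, and the difference between these roles was not tested. Ctns, the cystine exporter, was at 9.02 and 9.26 in unstimulated cells and at 7.74 and 7.65 in control cells (rise 1.44 ± 0.15 SE, limma adjusted p = 0.000307). Grn, progranulin, was at 13.13 and 13.27 against 11.98 and 11.96 (rise 1.23 ± 0.14). Tpp1, a peptidase, was at 8.24 and 8.44 against 7.27 and 7.17 (rise 1.13 ± 0.15). None of the 3 overlapped between groups, whereas Lamp1, the abundant membrane protein, was at 13.44 and 13.42 against 13.24 and 13.42 (difference 0.10, adjusted p = 0.636). Ctsd was at -0.30 and did not pass (adjusted p = 0.309). Ctsb, a cathepsin, rose by 0.60 in 3 of 6 fits that left out an array (highest adjusted p = 0.130, without unstimulated replicate 1). The transcript of Tfeb, the factor that drives this network when it enters the nucleus, was at 0.13 (adjusted p = 0.566).

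TFEB binds the CLEAR element, shown here in the windows of Mcoln1, the lysosomal calcium channel, and Atp6v0d1, a proton pump subunit, which rose by 1.08 and 0.87 and were the 2 largest risers of the list with a match. The windows are chr8:3500269-3500568, plus strand for Mcoln1 and chr8:105566015-105566314, minus strand for Atp6v0d1, and capitals mark TCACGTGA, which reads the same on both strands and contains the E-box CACGTG.
Mcoln1: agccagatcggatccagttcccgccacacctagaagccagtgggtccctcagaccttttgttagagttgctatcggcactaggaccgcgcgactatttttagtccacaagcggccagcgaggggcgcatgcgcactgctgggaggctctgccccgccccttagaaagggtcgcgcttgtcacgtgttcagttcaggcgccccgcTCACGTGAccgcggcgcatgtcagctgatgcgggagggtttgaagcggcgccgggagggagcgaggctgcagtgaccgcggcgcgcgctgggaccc
Atp6v0d1: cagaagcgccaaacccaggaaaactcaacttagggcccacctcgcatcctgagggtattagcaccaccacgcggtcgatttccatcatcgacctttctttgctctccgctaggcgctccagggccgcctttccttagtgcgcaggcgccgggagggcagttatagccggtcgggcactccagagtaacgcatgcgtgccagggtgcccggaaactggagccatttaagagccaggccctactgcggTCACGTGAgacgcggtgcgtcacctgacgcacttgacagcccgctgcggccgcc
The Mcoln1 element starts 46 bases and the Atp6v0d1 element 4 bases before the gene start. TCACGTGA was in 7 of 48 windows of the tested lysosomal genes (14.6%), against 0.974% of all windows and 2.09% of windows of genes tested. CACGTG was in 15 of the 48 (31.2%), against 7.15% and 10.4%.

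Autophagy genes rose in 13 of 32 cases and fell in none (median 0.38), 6 to 8 rising in fits without 1 of the 4 arrays, and among them 4 of 5 receptors that select cargo rose (median 0.94). Bnip3l, the mitochondrial receptor NIX, was at 12.68 and 12.66 in unstimulated cells and at 11.17 and 11.32 in control cells (rise 1.42 ± 0.14 SE, limma adjusted p = 0.000275). Wipi1, which binds the forming membrane, was at 10.55 and 10.62 against 9.35 and 9.09 (rise 1.36 ± 0.15), with other probes at 1.29 and 1.44. Both rises were larger than any difference between replicates of these genes. Map1lc3b, the LC3B conjugate, rose by 0.96. Sqstm1, which encodes p62, rose by 0.52 in 2 of 6 fits that left out an array (highest adjusted p = 0.136, without unstimulated replicate 2). Ulk1, the starting kinase, was at 0.41 and did not pass (adjusted p = 0.0737).

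Genes of the ATF4 and ER stress responses rose in 14 of 30 cases, 9 to 11 in fits without 1 of the 4 arrays, and fell in none (median 0.39). Nupr1, a stress-induced chromatin protein, was at 12.07 and 11.63 in unstimulated cells and at 9.32 and 9.39 in control cells (rise 2.49 ± 0.19 SE, limma adjusted p = 7.05e-05). Atf5 was at 12.38 and 12.36 against 10.66 and 10.86 (rise 1.61 ± 0.15). Both were separate between groups. Atf4 itself was at 0.30, Asns, its classical amino acid target, at 0.28, and Hspa5, the ER chaperone BiP, at -0.26, and none passed (adjusted p = 0.199 for Atf4, 0.200 for Asns and 0.289 for Hspa5). Other detected probes were at 0.46 for Atf4 and at 0.18 and 0.85 for Asns. The aminoacyl-tRNA synthetases, also ATF4 targets, rose in 1 of 18 cases.

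Extracellular matrix genes held several of the largest rises. All 5 small leucine-rich proteoglycans that could be tested, of 13 listed, rose (median 2.17), 4 or 5 in fits without 1 of the 4 arrays. Ogn, osteoglycin, was at 12.79 and 12.51 in unstimulated cells and at 9.09 and 8.82 in control cells (rise 3.69 ± 0.17 SE, limma adjusted p = 4.61e-06). Omd, osteomodulin, was at 9.27 and 9.15 against 6.96 and 7.12 (rise 2.17 ± 0.16). Dcn, decorin, was at 11.40 and 11.37 against 9.42 and 9.58 (rise 1.88 ± 0.14), with other probes at 2.04 and 0.83. These proteoglycans had separate groups, while Bgn, biglycan, rose by 0.80 in 3 of 6 fits that left out an array (highest adjusted p = 0.106, without unstimulated replicate 2). Prelp rose at least 13.4-fold from no detection. The same direction was seen in summed fibroblast and mesenchymal markers, 39200 to 45430 intensity units on the unstimulated and 25770 to 31680 on the control arrays, with 7 of 15 tested markers higher and 1 lower. The sum includes Dcn and is weighted to bright markers such as Vim, which was at 0.43 and did not pass (adjusted p = 0.243). The factors Twist1, Twist2, Snai2, Zeb1 and Zeb2, at -0.27 to 0.07, did not pass either. Of the defining markers of that list Thy1, Fap and Lum were not detected, and the part of a change in cell makeup was not tested.

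Collagens and their crosslinking enzymes rose in 10 of 23 cases and fell in 1 (median 0.56), 8 to 11 and 1 or 2 in fits without 1 of the 4 arrays. The collagen I chains went apart. Col1a1 was at 5.48 and 5.53 in unstimulated cells and at 4.77 and 4.64, not detected, in control cells, and was called higher (limma adjusted p = 0.00517), with no fold given because both levels lie near the detection limit. Col1a2 was at 5.63 and 5.46 against 6.67 and 6.34 and fell by 0.95 ± 0.16 SE (adjusted p = 0.00350). Both chains were dim. The brighter Col3a1 was at 11.33 and 11.36 against 9.74 and 9.76 (rise 1.59 ± 0.15), and Col6a2 at 11.77 and 12.01 against 10.34 and 10.23 (rise 1.60 ± 0.15), although its other probe gave 0.14. Lox, the crosslinking oxidase, rose by 1.28.

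Of 30 matrix glycoproteins and proteases 13 rose and 2 fell (median 0.34), 9 to 13 and 1 or 2 in fits without 1 of the 4 arrays. Mmp2, a gelatinase, was at 13.26 and 13.55 in unstimulated cells and at 11.63 and 12.08 in control cells (rise 1.55 ± 0.19 SE, limma adjusted p = 0.000704), and Mmp14, the membrane protease that activates it, was at 12.15 and 12.03 against 10.93 and 11.04 (rise 1.10 ± 0.14). Both were higher without overlap. Plaur, the urokinase receptor, fell by 0.76. Timp1, a serum-inducible protease inhibitor, fell by 0.52 and Timp2 rose by 0.52, each in 3 of 6 fits that left out an array (highest adjusted p 0.170 without unstimulated replicate 2 and 0.186 without control replicate 1).

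**Figure D5:**
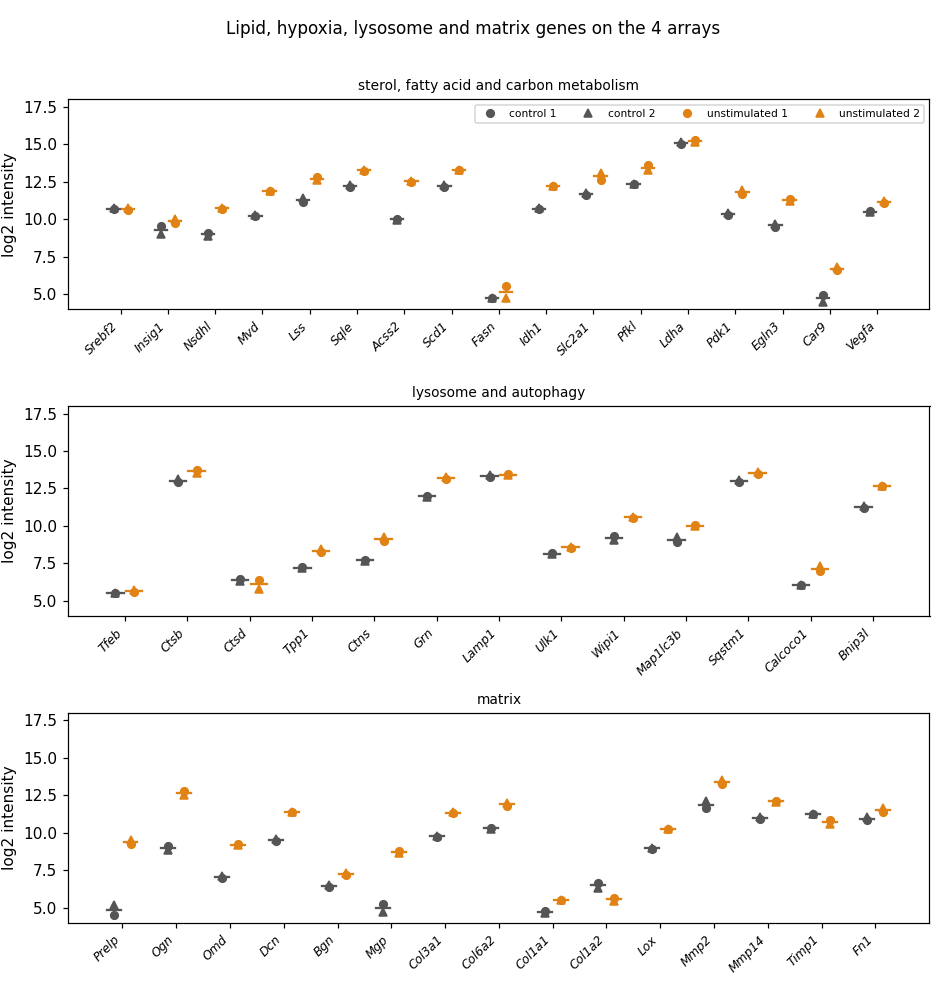
Points are log2 intensities of single arrays, circles for replicate 1 and triangles for replicate 2, with control cells in grey and unstimulated cells in orange, and bars are group means. Sterol enzymes, HIF targets, Ctns, Wipi1 and the proteoglycans are higher on both unstimulated arrays, while Srebf2, Ldha, Tfeb and Lamp1 lie close between groups and Col1a2 is lower.

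Transcription factors of the serum response did not fall as a group. Of 14 immediate early factors 6 rose and none fell (median 0.46), 4 or 5 in fits without 1 of the 4 arrays. Egr2 was at 8.34 and 8.61 in unstimulated cells and at 6.05 and 5.79 in control cells (rise 2.55 ± 0.16 SE, limma adjusted p = 2.70e-05), and Egr1 was at 12.34 and 12.46 against 11.50 and 11.47 (rise 0.91 ± 0.14). The unstimulated arrays were the higher ones in both. Genes of ERK feedback and output split, with 5 of 16 higher and 4 lower. Dusp1, a phosphatase of MAP kinases that also responds to stress, was at 12.61 and 12.72 against 10.84 and 10.81 (rise 1.84 ± 0.14), and Dusp6, which is specific for ERK, rose by 0.99, with other probes at 0.33 and 0.28. Etv4, a factor downstream of ERK, fell by 0.88, and Hbegf, an EGF receptor ligand, was at 7.04 and 6.77 against 8.24 and 8.74 (change -1.59 ± 0.20, adjusted p = 0.000898).

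The Id genes, targets of BMP signalling and of serum, fell the most within the BMP and TGF-beta list, in which 6 of 28 rose and 3 fell (2 to 5 and 2 or 3 in fits without 1 of the 4 arrays). Id1 was at 6.86 and 7.17 in unstimulated cells and at 9.34 and 9.04 in control cells (change -2.17 ± 0.24 SE, limma adjusted p = 0.000478). Id2 was at 5.72 and 5.75 against 7.85 and 7.88 (change -2.13 ± 0.31), with its other probe at -1.69. Id3 was at 4.94 and 4.81, not detected, against 6.55 and 6.51, and fell at least 2.10-fold. The 3 genes, which were all the falls of that list, had no overlap between groups. Smad3, a TGF-beta mediator, rose by 0.95, and Smad7 was not detected.

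YAP targets and actin genes moved little and in both directions, with 4 of 29 higher and 5 lower (median -0.22), and 1 or 2 in either direction in fits without 1 of the 4 arrays. Ccn1 and Ankrd1, targets of YAP, fell by 0.60 and 0.51, in 3 and 2 of 6 fits that left out an array (highest limma adjusted p 0.126 in both, without unstimulated replicate 2). Gsn, gelsolin, was at 8.85 and 9.27 against 5.69 and 5.46, not detected, and rose at least 10.7-fold (adjusted p = 3.15e-05). Actb was at 14.50 on both unstimulated arrays and at 14.78 and 14.84 on the control arrays, a difference of -0.31 that did not pass (adjusted p = 0.130).

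The 3 proliferin genes tested, which are close relatives whose probes may share transcripts, were among the largest falls (median -2.71), and all 3 fell in each fit without 1 of the 4 arrays. Prl2c3 was at 9.79 and 10.0 in unstimulated cells and at 12.89 and 12.55 in control cells, a change of -2.82 ± 0.17 SE (limma adjusted p = 1.71e-05). Prl2c4 was at 9.86 on both unstimulated arrays against 12.75 and 12.19, a change of -2.61 ± 0.22. Both control arrays were above both unstimulated arrays by over 2 units in each.

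More genes crossed into detection than out of it. At a detection p below 0.01, 227 genes were detected on both unstimulated arrays and neither control array, and 44 the other way round, of 19057 genes with a named probe. At a detection p below 0.05 the counts were 184 and 126, so the excess of genes seen only in starved cells was smaller. The 2 control arrays also differed in the number of detected probes, 14877 and 15685, beside 16176 and 15727 in unstimulated cells.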

How the data were processed

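The authors' non-normalized file gives linear probe intensities with no background subtraction. It also holds detection p-values per probe and array, per the file headers. A deposited table of log2 values equalled quantile-normalized log2 signals to within 0.00203, and served as an alternative. The bead software was not given in the sources used here. Per the labels' protocols, Trizol RNA was column-cleaned and amplified to biotinylated cRNA.

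Signals were corrected with limma 3.58.1 neqc in R 4.3.3 (normexp, offset 16, quantile, log2). Testing required 1 gene symbol and detection p below 0.01 on 2 or more of 6 arrays. Of 45281 probes, 34885 had 1 symbol, 18 had several and 10378 had none. A gene was its detected probe with the highest mean. A linear model with 1 mean per group over all 6 arrays gave 3 residual and 6 prior degrees of freedom, with Benjamini-Hochberg adjustment over 8909 genes. A gene undetected in 1 group has a bound, for which each undetected array counts as its lowest detected signal, or as the probe's own where that was brighter.

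The members and 53 lists were chosen with earlier results of these data known. Named genes are the 15 largest rises and falls, up to 3 called members per list and direction, and marker genes of each process; Smc2, Mcoln1 and Atp6v0d1 were added for their promoters, and Ccnd3, Pik3r3, Eif4ebp1 and Nlrc5 after their values were seen. Replicate numbers did not pair the samples (deviations correlated at -0.0213 between the 2 groups). The gene-wise test was checked on simulated data, with the recovery given in the text above. The 4 arrays limit the precision.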

Additional observations from a re-analysis of the deposited data

Results flagged for a closer look

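Detected probes without a gene name in the annotation lay outside the comparisons above, and some of them changed. Of 2198 such probes 549 were called (limma, Benjamini-Hochberg), 234 higher and 315 lower in unstimulated cells, with log2 fold changes from -2.11 to 3.16. Their share called was 25%, beside 25.9% of 14157 detected probes with 1 gene symbol.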

How the results depend on the processing

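The counts of genes higher (1527) and lower (1219) stayed within 1.5 times of these values under the other background, scaling, filter and weighting settings, except that all detected probes in place of 1 per gene gave 2052 lower. Without background correction, and with the deposited log2 values, 245 genes were higher and 62 lower by 2-fold or more, in place of 459 and 174. With a normexp offset of 50, 96 were lower by 2-fold or more, and over all detected probes 751 were higher and 379 lower. At a detection p below 0.05, 126 genes were detected only in control cells in place of 44. Leaving out 1 of the 6 arrays gave 837 to 1555 genes higher and 529 to 1276 lower, with a smaller design and the 1 array left in a group assumed to vary like the others. Of the genes called in the main setting, 2592 of 2746 remained called without background correction, 2561 with median scaling, 2358 at a detection p below 0.05, 1916 with no detection filter, and 1314 to 1613 of 2708 to 2717 without 1 of the 4 arrays. Median scaling moved the all-gene median to -0.05 and the share of higher among called genes from 55.6% to 48.6%. With the replicate number as a block 1457 genes were higher and 1139 lower, and 2518 of the 2746 calls remained; numbers do not pair these samples. Irgm1 reversed to 0.47 (adjusted p = 0.0279) with the mean of its detected probes; the cause was not tested beyond the probe values given. Of 53 list medians 38 kept their sign in every setting and 50 in every scaling. Genes near the detection limit have the least certain fold changes, since intensity over background sets their size.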

Other observations

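The primary cilium is an antenna that many cells build when they leave the cycle. On a list of cilium and hedgehog genes 11 of 38 rose and 2 fell (median 0.28, limma, Benjamini-Hochberg). The rises were 7 of 16 intraflagellar genes, 1 of 6 of the BBSome and 3 of 11 of the transition zone. Of 5 hedgehog genes none rose and 1 fell. Some of these counts were lower in fits without 1 of the 4 arrays. Nphp4, a transition zone protein, was at 7.0 and 6.59 in unstimulated cells and at 5.63 and 5.54 in control cells, a rise of 1.21. Tctn2, of the same zone, rose by 1.13 and Dync2li1, a light chain of the motor for return transport, by 1.09. The hedgehog pathway that signals through the cilium was not higher: Ptch1, its receptor and target, fell by 0.65 in 3 of 6 fits that left out an array (highest adjusted p = 0.107, without control replicate 2), and Gli1 was not detected. Ift57 fell by 0.92, also in 3 of 6 (0.272 without unstimulated replicate 2). Of 14 clock genes 5 rose and 2 fell, 2 to 5 and 0 or 1 in fits without 1 of the 4 arrays. Bhlhe40, a repressor that responds to serum and hypoxia, was at 10.88 and 11.29 against 10.03 and 9.79, a rise of 1.17, and Ciart, also a clock repressor, rose by 0.90.

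Death and p53 genes went both ways. Of 20 BCL2 family and caspase genes 6 rose and 2 fell. Bcl2l11, which encodes the FOXO-driven death factor BIM, was at 9.83 and 9.82 in unstimulated cells and at 8.64 on both control arrays, a rise of 1.18 ± 0.14 SE (limma adjusted p = 0.000654), with other probes at 1.20 and 0.39. Bmf, a relative freed by loss of attachment, rose at least 2.67-fold from no detection. Mcl1 and Bcl2, which protect, were at 0.21 and 0.24 and did not pass (adjusted p = 0.368 for Mcl1 and 0.276 for Bcl2). Of 20 p53 targets 6 rose and 3 fell, and Mdm2 was at 0.16 (adjusted p = 0.475). Of 28 NRF2 targets and selenoproteins 6 rose and 8 fell. Fewer BCL2 family and caspase genes, p53 targets, and NRF2 targets and selenoproteins rose in each fit without 1 of the 4 arrays. Fewer p53 targets fell in those fits as well. The selenoproteins Gpx1, a peroxidase, and Selenoh were at 12.33 and 12.48 against 13.82 and 14.00, and at 11.95 and 11.91 against 13.67 and 13.52, changes of -1.51 and -1.67, while Selenos, an ER membrane selenoprotein, rose by 1.20. Among metal genes Slc40a1, the iron exporter ferroportin, lay below detection in control cells and rose by a factor of at least 5.62, Slc39a10, a zinc importer, fell by 1.55, and Tfrc, the transferrin receptor, was at 0.32 and did not pass (adjusted p = 0.139).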
